A study of Homo sapiens with 12 samples.

Results

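Genes of the endoplasmic reticulum that fold, check and dispose of secreted proteins were followed in RS4:11 and SEM-K2, established human acute lymphoblastic leukaemia lines whose leukaemia carries the MLL-AF4 fusion. The genes were chosen by name, 36 in all, as the chaperones, folding enzymes, stress sensors, degradation factors and entry factors of that compartment. For each gene the value came from the probe set with that gene as its only symbol and with the highest mean over all 12 arrays. TXNDC5, a thioredoxin-like folding enzyme, and SYVN1, a ubiquitin ligase of the degradation route, had only probe sets with several symbols, so 34 of the 36 were measured, out of 19775 genes with such a probe set. All 34 passed the filter on low values, as did 10561 genes in all.

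Both lines were exposed for 6 h to vehicle, to obatoclax at the 72 h EC50, or to obatoclax at 3 times that concentration, written 3xEC50. Obatoclax is a compound made to block BCL2, MCL1 and the other antiapoptotic relatives of BCL2, and an EC50 is the dose that gives an effect midway to its maximum, here in a 72 h assay. Neither the concentrations nor whether they were equal in both lines is given in the sources used here. The 6 groups each had 2 biologic replicates on the Affymetrix U133 Plus 2 array, and since nothing says how the replicates were kept apart, p-values reflect only how far these samples spread, which may be technical in part.

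Proteins destined for secretion or for membranes enter the endoplasmic reticulum through the SEC61 channel and fold there with the help of chaperones such as BiP, the product of HSPA5. Unfolded protein occupies BiP and frees 3 sensors, encoded by ERN1 (IRE1), ATF6 and EIF2AK3 (PERK). IRE1 splices the XBP1 transcript, ATF6 is cut to release a transcription factor, and PERK phosphorylates a translation factor, which favours ATF4 and, through it, CHOP (DDIT3). XBP1 and ATF6 raise transcription of chaperones and of genes that send misfolded proteins to the proteasome. The arrays measured transcript levels only, so XBP1 splicing, ATF6 cleavage and PERK phosphorylation were not measured here.

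B cell precursor markers fitted the label, with 9 of 9 measured markers above the floor of 4 (log2) on every RS4:11 array and 7 of 9 on every SEM-K2 array, where RAG1 was below the floor on all 6 arrays (2.66 to 3.66) and DNTT ranged from 2.95 to 4.14. Of 6 markers each, 5 myeloid and 5 T and NK cell markers, and 4 plasma cell and 4 fibroblast and epithelial markers, lay below the floor on all 12 arrays. Replicate arrays of a group correlated at 0.987 to 0.996 across probe sets. The array of SEM-K2 at 3xEC50, replicate 2, stood apart in RNA quality, with a 3' minus 5' difference of 1.97 (log2) for the ACTB control probe sets, where the other 11 arrays had 0.867 to 1.23, and of 0.610 for those of GAPDH, where the others had 0.0801 to 0.302. Changes that lean on this array are given with and without it for a number of the genes, not for all.

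DNA motifs of the unfolded protein response were searched on both strands of the 250 bases before each RefSeq start site (GRCh38.p14): the stress element ERSE, which is CCAAT and CCACG with 9 bases of any kind between them, the related ERSE-II, which is ATTGG and CCACG with 1 base between them, and the XBP1 and ATF6 element UPRE, TGACGTGG. Of the 36 genes, 33 had an entry. ERSE stood in a window of 8 of these 33, HSPA5, HSP90B1, CALR, CANX, CRELD2, PDIA6, ERO1B and XBP1, against 0.0916% of the 27305 genes in the promoter table. ERSE-II stood in 3 (SDF2L1, HYOU1 and HERPUD1; 0.0659% of all genes) and UPRE in 3 (HYOU1, TXNDC5 and SSR3; 0.780% of all genes). In HYOU1 the UPRE overlapped an ERSE-II. The genes were chosen by name for their part in this compartment, so these shares are a description and not a test. Promoters of 5 genes that hold a motif and have values given below are shown 5' to 3', on the gene's strand, with motif letters in capitals, and beside them that of MANF, whose window holds none. PDIA4 and DNAJB11, described below, also had none of the motifs in any window. A motif on the opposite strand reads as CGTGG followed by ATTGG or CCAAT. The windows are chr9:125241344-125241593 (minus strand, HSPA5), chr12:103930160-103930409 (plus strand, HSP90B1), chr22:21642052-21642301 (plus strand, SDF2L1), chr11:119057206-119057455 (minus strand, HYOU1) chr16:56931892-56932141 (plus strand, HERPUD1) and chr3:51385041-51385290 (plus strand, MANF).
HSPA5: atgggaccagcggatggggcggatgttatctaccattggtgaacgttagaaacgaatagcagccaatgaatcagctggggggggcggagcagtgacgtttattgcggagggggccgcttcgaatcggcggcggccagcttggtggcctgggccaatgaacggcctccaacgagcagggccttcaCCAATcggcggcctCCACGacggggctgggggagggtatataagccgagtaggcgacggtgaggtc
HSP90B1: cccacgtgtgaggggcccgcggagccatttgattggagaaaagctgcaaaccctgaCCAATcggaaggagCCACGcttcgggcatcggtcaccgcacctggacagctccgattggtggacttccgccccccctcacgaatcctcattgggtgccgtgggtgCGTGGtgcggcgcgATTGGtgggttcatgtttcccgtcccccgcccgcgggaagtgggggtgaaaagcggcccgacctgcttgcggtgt
SDF2L1: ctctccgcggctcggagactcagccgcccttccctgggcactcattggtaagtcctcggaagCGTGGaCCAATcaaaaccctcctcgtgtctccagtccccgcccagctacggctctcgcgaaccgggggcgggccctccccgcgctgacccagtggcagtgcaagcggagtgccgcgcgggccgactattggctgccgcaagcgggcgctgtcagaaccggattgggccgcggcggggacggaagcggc
HYOU1: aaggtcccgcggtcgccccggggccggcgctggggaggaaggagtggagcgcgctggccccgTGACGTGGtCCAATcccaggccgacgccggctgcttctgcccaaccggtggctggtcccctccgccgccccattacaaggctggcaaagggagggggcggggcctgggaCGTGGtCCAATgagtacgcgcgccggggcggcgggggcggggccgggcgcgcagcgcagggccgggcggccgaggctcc
HERPUD1: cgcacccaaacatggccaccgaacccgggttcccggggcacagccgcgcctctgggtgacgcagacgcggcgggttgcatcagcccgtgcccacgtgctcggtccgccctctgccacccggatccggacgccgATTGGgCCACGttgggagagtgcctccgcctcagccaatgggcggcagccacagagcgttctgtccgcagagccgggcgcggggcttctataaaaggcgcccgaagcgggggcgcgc
MANF: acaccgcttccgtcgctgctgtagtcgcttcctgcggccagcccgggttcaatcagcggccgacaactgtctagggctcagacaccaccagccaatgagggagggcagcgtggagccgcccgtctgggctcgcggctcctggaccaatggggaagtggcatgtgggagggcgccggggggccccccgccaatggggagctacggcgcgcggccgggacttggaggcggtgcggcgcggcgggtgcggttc

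In HSPA5 the ERSE spanned the bases 66 to 48 before the start. HSP90B1 held 2 of them, at 194 to 176 and, on the opposite strand, at 89 to 71. HYOU1 held 2 ERSE-II, at 185 to 175 and at 79 to 69, both on the opposite strand. The ERSE of the other genes, read on the strand that holds it, differed from these in the bases between CCAAT and CCACG.
CALR: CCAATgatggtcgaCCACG
CANX: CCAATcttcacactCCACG
CRELD2: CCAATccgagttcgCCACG
PDIA6: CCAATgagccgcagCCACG
ERO1B: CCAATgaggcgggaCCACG
XBP1: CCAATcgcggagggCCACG

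In RS4:11 most chaperone transcripts were lower on the obatoclax arrays than on the vehicle arrays, while in SEM-K2 the same transcripts lay less far below vehicle. In bulk RNA of a culture, fewer cells with a transcript and less of it per cell cannot be told apart. With limma, 0 of 34 genes passed an adjusted p of 0.05 in RS4:11 at EC50, at 3xEC50 or over both doses together, and neither did any gene of the 10561 tested (percent called 0 in each). With the replicate number as a block, still 0 of the 34 passed in RS4:11, and over both doses 17 genes in all (0.161%). An unadjusted p under 0.05 was reached downwards by 8 of 34 at EC50 (1.73% of all genes), by 10 at 3xEC50 (2.38%) and by 11 over both doses (2.64%), and upwards by 1 in each, ERN1 (2.47%, 2.53% and 3.29% of all genes), whose vehicle arrays there lay under the floor.

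Both treated arrays lay below both vehicle arrays for 16 of 34 genes in RS4:11 at EC50 (12.9% of all genes tested) and for 19 at 3xEC50 (15.9%). All 4 treated arrays did so for 14 of 34 (8.30%), and lay above both vehicle arrays for 2 (10.8%). Both treated arrays lay above both vehicle arrays for 3 at EC50 (17.5%) and 3 at 3xEC50 (18.4%). One of the former, SEC11C, was under the floor on all 6 RS4:11 arrays, which leaves 2, ERO1B and ERN1. The median change of the 34 genes was -0.16 at EC50 and -0.21 at 3xEC50 on the log2 scale, where all genes tested had 0.024 and 0.017. The comparisons of both doses share their vehicle arrays.

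In SEM-K2 limma called 0 of 34 genes at EC50 (0.170% of all genes), at 3xEC50 (0.824%) and over both doses (0.748%). An unadjusted p under 0.05 was reached by 1 gene upwards at EC50 (3.97% of all genes) and by none downwards (1.51%). At 3xEC50, 5 genes reached it upwards (8.10%) and 6 downwards (3.58%), and over both doses 3 upwards (7.38%) and 2 downwards (2.85%). With the replicate block, ERN1 and ERO1B passed at 3xEC50, both upwards, where 164 of all genes tested did (1.55%). Both treated arrays lay below both vehicle arrays for 10 of 34 at EC50 (11.8%) and for 10 at 3xEC50 (14.0%), and above them for 4 (21.8%) and 8 (22.6%). Over both doses 7 had all 4 treated arrays below (5.98%) and 3 above (12.4%). The median change was -0.012 at EC50 and -0.014 at 3xEC50, beside 0.054 and 0.061 for all genes.

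**Figure D1:**
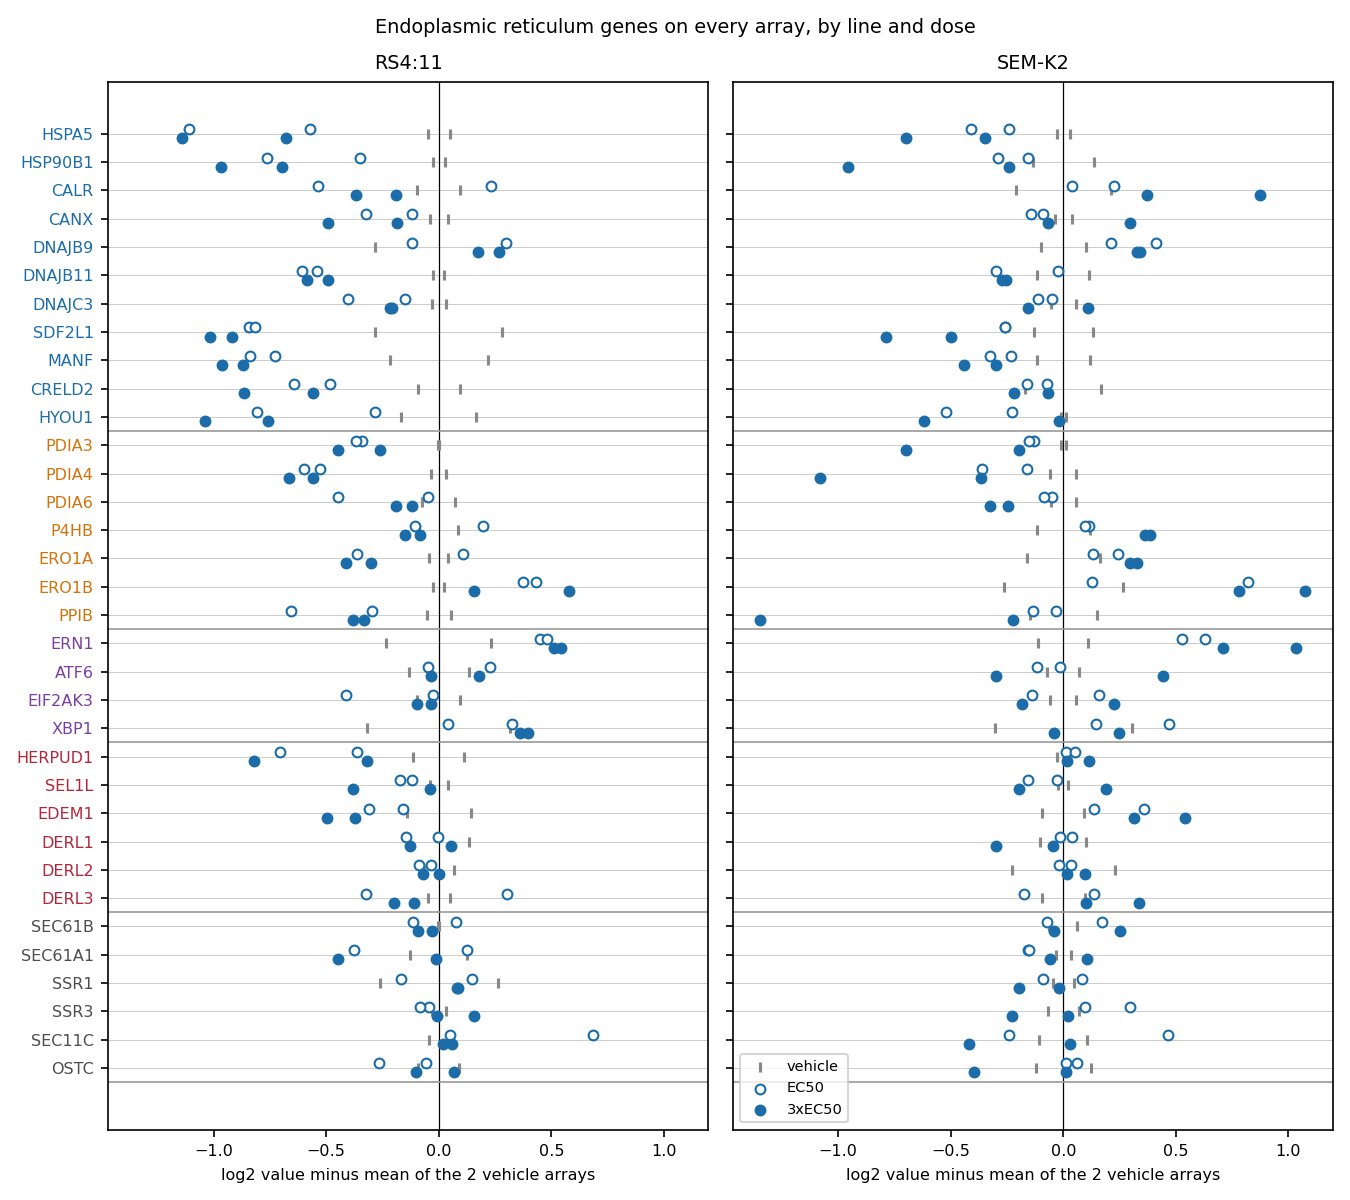
Each point is the log2 value of a gene on 1 array minus the mean of the 2 vehicle arrays of its line, with RS4:11 on the left and SEM-K2 on the right. Grey ticks are vehicle arrays, open circles EC50 and filled circles 3xEC50, and genes are grouped by role, from chaperones at the top (blue names) through folding enzymes (orange), sensors and XBP1 (purple) and degradation (red) to entry and glycosylation (grey). In RS4:11, 9 of 11 chaperones have all 4 treated arrays below both vehicle arrays, and in SEM-K2 5 of 11.

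Among the chaperones, 9 of 11 in RS4:11 had all 4 treated arrays below both vehicle arrays, and the exceptions were CALR and DNAJB9. The median chaperone change was -0.56 at EC50 and -0.71 at 3xEC50 (log2). HSPA5, which encodes the central chaperone BiP, read 12.62 and 12.53 on the RS4:11 vehicle arrays (replicate 1 first, here and below), 12.001 and 11.47 at EC50, and 11.90 and 11.43 at 3xEC50. The treated arrays did not overlap with vehicle, and replicate 2 was the lower at each dose. Over both doses HSPA5 was lower by -0.88 ± 0.19 on the log2 scale, 1.83-fold, with an adjusted p of 0.277 (0.0693 with the replicate block). Here and below ± marks the standard error of a change, always from the fit without the block.

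SDF2L1, a cofactor of BiP, read 8.53 and 9.10 with vehicle, 7.97 and 7.997 at EC50, and 7.80 and 7.90 at 3xEC50 in RS4:11. Its vehicle arrays were further apart than all 4 treated arrays, which lay below both, and the change over both doses was -0.90 ± 0.17 (adjusted p = 0.241). MANF, a secreted factor of the stressed endoplasmic reticulum that binds BiP, read 9.90 and 10.34 with vehicle, 9.28 and 9.39 at EC50, and 9.25 and 9.16 at 3xEC50. The treated arrays again lay together below both vehicle arrays, with a change of -0.85 ± 0.15 and the smallest adjusted p of the 34 genes in this comparison (0.189; 0.0755 with the block). HYOU1, the exchange factor and chaperone that resets BiP, read 9.54 and 9.88 with vehicle, 8.90 and 9.43 at EC50, and 8.67 and 8.95 at 3xEC50, all treated arrays being below vehicle, and replicate 2 at EC50 only just. HSP90B1, the endoplasmic reticulum member of the HSP90 family (GRP94), read 11.67 and 11.73, then 11.35 and 10.93, then 11.00 and 10.73 over the same groups. Its values stepped down from vehicle with no overlap, by -0.83 ± 0.25 at 3xEC50.

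CRELD2, another stress-induced secreted factor, changed by -0.64 ± 0.15 over both doses in RS4:11, and DNAJB11, a BiP cofactor that hands it clients, by -0.56 ± 0.13. DNAJC3, an inhibitor of PERK and BiP cofactor, changed by -0.24 ± 0.13, and CANX, the membrane lectin chaperone calnexin, by -0.28 ± 0.15. In all 4 the treated arrays lay below vehicle. CALR, the soluble lectin chaperone calreticulin, read 10.51 and 10.32 with vehicle, 9.88 and 10.65 at EC50, and 10.05 and 10.23 at 3xEC50. Its replicates at EC50 fell on either side of vehicle. DNAJB9, a cofactor that brings BiP to IRE1, read 8.50 and 7.94 with vehicle, 8.52 and 8.10 at EC50, and 8.49 and 8.39 at 3xEC50, and overlapped. It was the 1 chaperone with a change above 0 over both doses, 0.16 ± 0.19.

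In SEM-K2 the chaperone median was -0.16 at EC50 and -0.26 at 3xEC50 (log2). HSPA5 read 12.75 and 12.81 with vehicle, 12.54 and 12.37 at EC50, and 12.43 and 12.08 at 3xEC50. The treated arrays stood below vehicle without overlap, by -0.42 ± 0.19 over both doses (adjusted p = 0.510); at 3xEC50 the change was -0.52, and -0.35 without the array that stood apart in RNA quality. SDF2L1 read 9.11 and 8.85 with vehicle, 8.72 and 8.72 at EC50, and 8.48 and 8.19 at 3xEC50, and MANF 10.24 and 10.01, then 9.80 and 9.89, then 9.68 and 9.82. All treated arrays of both genes lay below vehicle, by -0.45 ± 0.17 and -0.32 ± 0.15 over both doses. Without the array that stood apart these changes were -0.38 and -0.36. HYOU1 read 9.94 and 9.92 with vehicle, 9.41 and 9.71 at EC50, and 9.31 and 9.91 at 3xEC50, so that replicate 2 at the higher dose, the array that stood apart, was at the vehicle level. Its change at 3xEC50 was -0.32, and -0.62 without that array. HSP90B1 read 11.94 and 11.67, then 11.65 and 11.51, then 11.56 and 10.85, the lowest being the array that stood apart in RNA quality. Its change at 3xEC50 was -0.60 ± 0.25, and -0.24 without that array.

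CALR went the other way in SEM-K2, at 10.73 and 10.31 with vehicle, 10.56 and 10.74 at EC50, and 10.89 and 11.39 at 3xEC50. Both arrays at 3xEC50 exceeded vehicle, by 0.62 ± 0.27 (adjusted p = 0.420), and by 0.37 without replicate 2 of that dose. DNAJB9 also lay above vehicle on all 4 treated arrays, at 8.32 to 8.51 against 8.20 and 8.004. CANX, CRELD2, DNAJB11 and DNAJC3 overlapped with vehicle when all 4 treated arrays were taken, with changes over both doses between -0.21 and -0.0014.

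**Figure D2:**
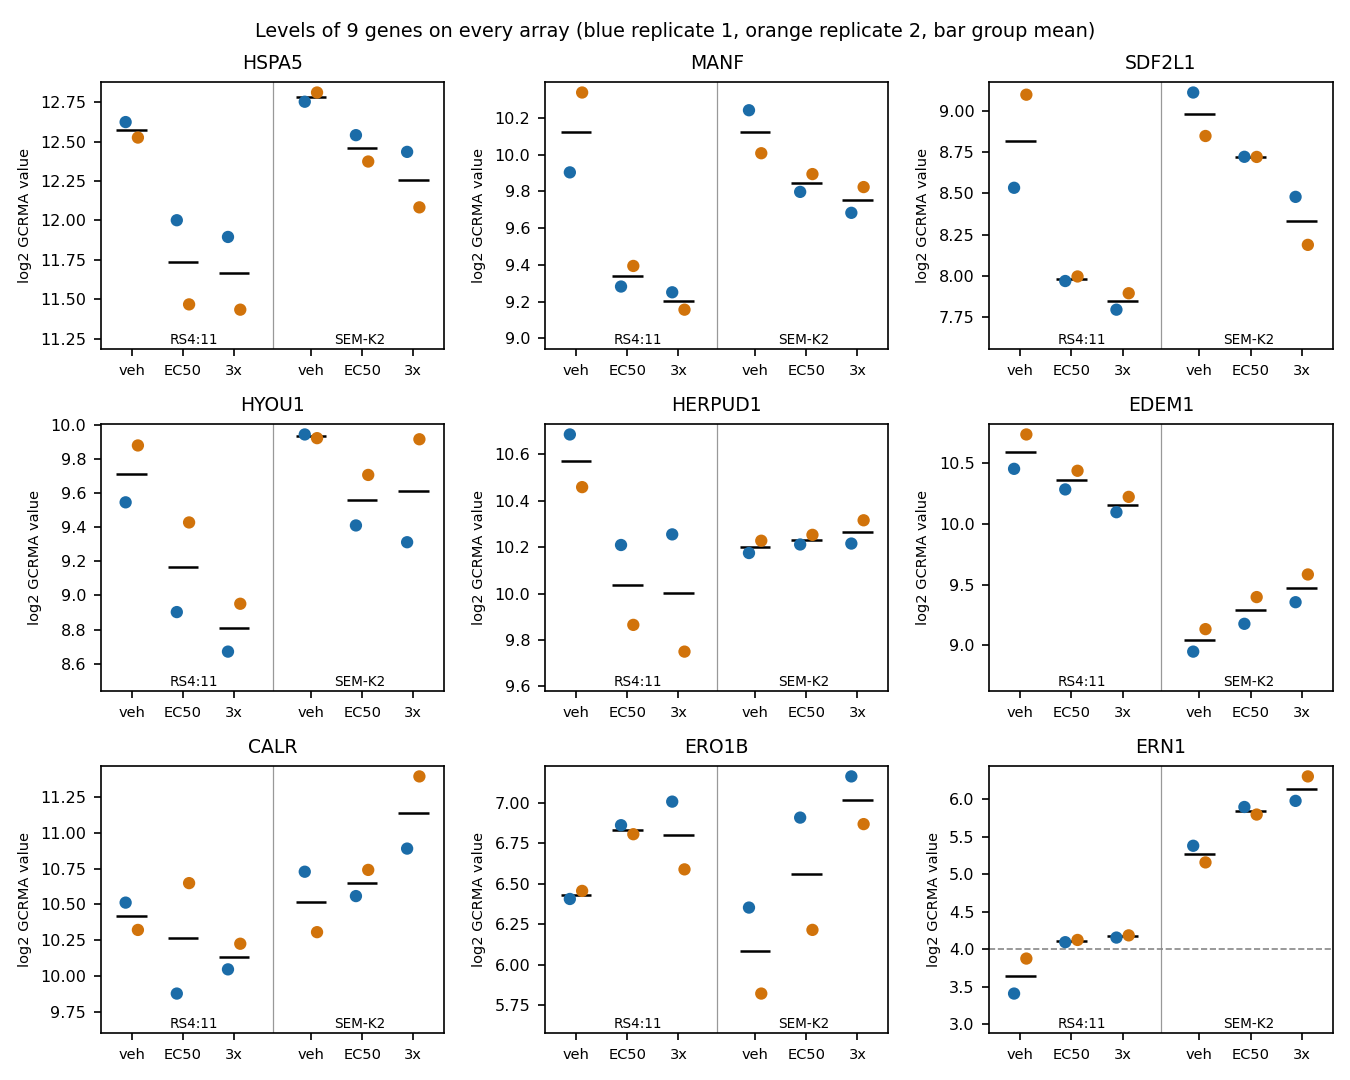
Log2 GCRMA values of 9 genes on all 12 arrays, by line and dose (veh, vehicle; 3x, 3xEC50). Blue points are replicate 1, orange points replicate 2 and bars group means; the dashed line in the ERN1 panel is the floor of 4, and the y axes differ between panels and do not start at 0. HSPA5, MANF and SDF2L1 lie below vehicle on every treated array of both lines, EDEM1 lies below vehicle in RS4:11 and above it in SEM-K2, and ERN1 lies above vehicle in both.

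The folding enzymes had a median change of -0.25 at EC50 and -0.36 at 3xEC50 in RS4:11, and of -0.068 and -0.29 in SEM-K2 (log2). PDIA4, a protein disulphide isomerase, read 10.56 and 10.63 with vehicle in RS4:11, 10.07 and 10.00 at EC50, and 9.93 and 10.03 at 3xEC50. The treated arrays were close together and below vehicle, by -0.59 ± 0.19 over both doses (adjusted p = 0.588). In SEM-K2 it read 10.52 and 10.40, then 10.10 and 10.30, then 10.09 and 9.38. The last of these was the array that stood apart, and the change at 3xEC50 was -0.72 ± 0.21 with it and -0.37 without it. The other PDIA4 probe set above the floor changed by 0.077 there. With that array alone to stand for the dose the change was -1.08.

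PPIB, cyclophilin B, which turns proline bonds during folding, showed the same array. It read 12.90 and 12.60 with vehicle in SEM-K2, 12.61 and 12.72 at EC50, and 12.52 and 11.40 at 3xEC50. Its change at 3xEC50 was -0.79 ± 0.31, -0.22 without replicate 2 and -1.35 without replicate 1. In RS4:11 PPIB read 12.63 and 12.53, then 12.28 and 11.93, then 12.25 and 12.20, with all treated arrays below vehicle. PDIA3, the isomerase that works with the lectin chaperones, lay below vehicle on all 4 treated arrays of both lines, by -0.35 ± 0.15 over both doses in RS4:11 and -0.29 ± 0.15 in SEM-K2. Without the array that stood apart the SEM-K2 change of PDIA3 was -0.17 over both doses, and at 3xEC50 -0.19 in place of -0.45. PDIA6 changed by -0.20 and -0.18. In both lines it overlapped with vehicle at EC50 and lay below it on both arrays at 3xEC50. P4HB, the archetypal disulphide isomerase, changed by -0.035 ± 0.14 in RS4:11 and by 0.24 ± 0.14 in SEM-K2, where both arrays at 3xEC50 (11.50 and 11.48) exceeded vehicle (11.23 and 11.00). The other 2 P4HB probe sets did not show this, with changes of -0.45 and -0.074 in SEM-K2 at 3xEC50.

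ERO1A and ERO1B encode the oxidases that recharge disulphide isomerases. ERO1B read 6.41 and 6.46 with vehicle in RS4:11, 6.86 and 6.81 at EC50, and 7.01 and 6.59 at 3xEC50, all treated arrays being above vehicle. In SEM-K2 it read 6.35 and 5.82, then 6.91 and 6.22, then 7.16 and 6.87. Each replicate number was higher at each dose than its own vehicle array, and at 3xEC50 the groups did not overlap. The change at 3xEC50 was 0.93 ± 0.26, 1.90-fold, with an adjusted p of 0.211 without and 0.0445 with the replicate block. Without the array that stood apart the change was 1.08. The other ERO1B probe set above the floor did not show this rise, with a change of 0.0011 in SEM-K2 at 3xEC50. In RS4:11 at 3xEC50 it changed by 0.67, where the one used changed by 0.37. ERO1A read 9.69 and 9.37 with vehicle in SEM-K2 and 9.86 and 9.82 at 3xEC50, and in RS4:11 9.36 and 9.28 with vehicle and 9.02 and 8.91 at 3xEC50. Both arrays at 3xEC50 were above vehicle in SEM-K2 and below it in RS4:11, but ERO1A overlapped with vehicle at EC50 in both lines. The other 2 ERO1A probe sets, above the floor on all 12 arrays, each had the same sign in both lines at 3xEC50, at -0.12 and 0.12 in RS4:11 and -0.065 and 0.19 in SEM-K2.

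Of the sensors and XBP1, ERN1, which encodes the kinase and RNase IRE1, was the gene with values above vehicle on every treated array of both lines. It read 5.38 and 5.16 with vehicle in SEM-K2, 5.89 and 5.79 at EC50, and 5.98 and 6.30 at 3xEC50. The groups did not overlap, and at 3xEC50 the change was 0.87 ± 0.19, 1.83-fold, with an adjusted p of 0.0956 without and 0.0464 with the replicate block. Without the array that stood apart in RNA quality the ERN1 change was 0.71. In RS4:11 it read 3.41 and 3.87 with vehicle, 4.09 and 4.12 at EC50, and 4.15 and 4.18 at 3xEC50. The vehicle arrays there lay under the floor of 4 and the treated arrays just over it, so that ERN1 was at least 1.12-fold higher at 3xEC50.

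ATF6, the sensor that becomes a transcription factor, read 6.81 and 6.54 with vehicle, 6.63 and 6.90 at EC50, and 6.64 and 6.85 at 3xEC50 in RS4:11, and 7.49 and 7.63, then 7.54 and 7.45, then 7.26 and 8.002 in SEM-K2. Treated and vehicle arrays overlapped in both lines. EIF2AK3, which encodes PERK, changed by -0.14 ± 0.17 over both doses in RS4:11 and by 0.015 ± 0.17 in SEM-K2. XBP1, the transcription factor spliced by IRE1, read 10.31 and 9.67 with vehicle in RS4:11, 10.32 and 10.03 at EC50, and 10.39 and 10.35 at 3xEC50. Both arrays at 3xEC50 exceeded vehicle, by 0.38 ± 0.27, where a second XBP1 probe set changed by -0.51, but in SEM-K2 (9.37 and 8.76 with vehicle, 9.31 and 9.03 at 3xEC50) they overlapped.

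The degradation genes had a median change over both doses of -0.13 in RS4:11 and 0.039 in SEM-K2 (log2), and in RS4:11 all 6 changes were below 0, as were those of 44.8% of all genes tested. HERPUD1, a membrane protein of the ubiquitin ligase complex, read 10.68 and 10.46 with vehicle in RS4:11, 10.21 and 9.87 at EC50, and 10.25 and 9.75 at 3xEC50. Treated arrays lay below vehicle, by -0.55 ± 0.17 over both doses (adjusted p = 0.559). In SEM-K2 all 6 arrays read between 10.17 and 10.32, and the change over both doses was 0.048 ± 0.17.

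EDEM1, which extracts misfolded glycoproteins from the folding cycle, read 10.45 and 10.74 with vehicle in RS4:11, 10.28 and 10.44 at EC50, and 10.10 and 10.22 at 3xEC50. In SEM-K2 it read 8.95 and 9.13 with vehicle, 9.18 and 9.40 at EC50, and 9.35 and 9.58 at 3xEC50. The values went down with dose in the former line and up in the latter, for each replicate number, with no overlap with vehicle. The changes over both doses were -0.33 ± 0.15 and 0.34 ± 0.15. SEL1L is the scaffold of the SYVN1 ligase, and the Derlins DERL1, DERL2 and DERL3 take part in moving proteins back to the cytosol. These genes changed by -0.18 to 0.10 over both doses. With the treated arrays of both doses pooled, each overlapped with vehicle in both lines. At EC50 alone SEL1L lay below vehicle on both treated arrays of each line. At 3xEC50 alone both DERL3 arrays lay below vehicle in RS4:11 and above it in SEM-K2. Other probe sets of SEL1L (-0.56 and -0.54) and DERL2 (-0.51) were lower over both doses in RS4:11 than those used (-0.18 and -0.048).

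The entry and glycosylation genes had median changes over both doses of -0.040 over the 5 above the floor in RS4:11 and of -0.049 over all 6 in SEM-K2. SEC61A1 and SEC61B are subunits of the channel, SSR1 and SSR3 of the associated translocon complex, and OSTC of the glycan transferase. On the probe sets used, these genes had changes over both doses between -0.18 and 0.077. With the treated arrays of both doses pooled, each overlapped with vehicle in both lines. At EC50 alone SSR3 lay below vehicle in RS4:11 and above it in SEM-K2, and SEC61A1 lay below it in SEM-K2. At 3xEC50 alone SEC61B lay below vehicle in RS4:11. The other SEC61A1 probe set above the floor changed over both doses by -0.34 in RS4:11 and -0.55 in SEM-K2. Those of SSR3 changed by -0.39 to -0.21 in RS4:11 and by -0.42 to 0.063 in SEM-K2. Those of SSR1 changed by -0.47 to 0.096 in RS4:11 and by -0.37 to -0.050 in SEM-K2. SEC11C, a catalytic subunit of signal peptidase, changed by -0.041 ± 0.24 over both doses in SEM-K2. In RS4:11 its values of 3.14 to 3.88 were under the floor on all 6 arrays, so it has no change there.

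With the probe sets used, all 11 chaperones had a response above that of RS4:11 in SEM-K2, as did 28 of all 34 genes over both doses (59.3% of all genes tested), with a median difference of 0.38 for the chaperones, 0.17 for the 34 genes and 0.047 for all genes tested (log2, SEM-K2 response minus RS4:11 response). Of all 23 chaperone probe sets above the floor, 20 had a difference above 0; the exceptions were 1 of CANX (-0.020) and 2 of DNAJC3 (-0.046 and -0.079), against 0.28 and 0.19 for those used. The test of the difference called 0 of 34 at EC50 (0.00947% of all genes), at 3xEC50 (0.0379%) and over both doses (0.0663%), and 0 of 34 with the replicate block. An unadjusted p under 0.05 was reached by 0 genes at EC50 (1.75% of all genes, either direction), by 5 at 3xEC50, all upwards (2.54% of all genes), and by 4 over both doses, all upwards (1.77%). These 4 were EDEM1 (0.67 ± 0.21), HERPUD1 (0.60 ± 0.24), MANF (0.52 ± 0.21) and CRELD2 (0.51 ± 0.21). At 3xEC50 EDEM1 differed by 0.86, with a 95% confidence interval of 0.33 to 1.40, an unadjusted p of 0.00513 and an adjusted p of 0.860.

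For HSPA5 the difference between the lines was 0.45 with an interval of -0.17 to 1.07, and for SDF2L1 0.45 with -0.11 to 1.00, so both intervals held 0 and reached about 1 log2 unit. HSP90B1 differed by 0.28 (-0.39 to 0.96), and by 0.46 without the array that stood apart, while HYOU1 differed by 0.38 with that array and 0.23 without it. PDIA3, PDIA4 and PDIA6 differed by 0.060, 0.094 and 0.023, with standard errors of 0.21, 0.26 and 0.20. Without that array PDIA3 differed by 0.19, PDIA4 by 0.27 and PDIA6 by 0.043. Other probe sets above the floor differed by 0.56 and 0.18 for PDIA3 and by 0.37 for PDIA4. Those of PDIA6 differed by 0.022 to 0.080. ERO1B differed by 0.32 ± 0.32, and its other probe set by -0.36. ERN1 differed by 0.23 ± 0.23, and the latter rests in RS4:11 on vehicle values under the floor.

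**Figure D3:**
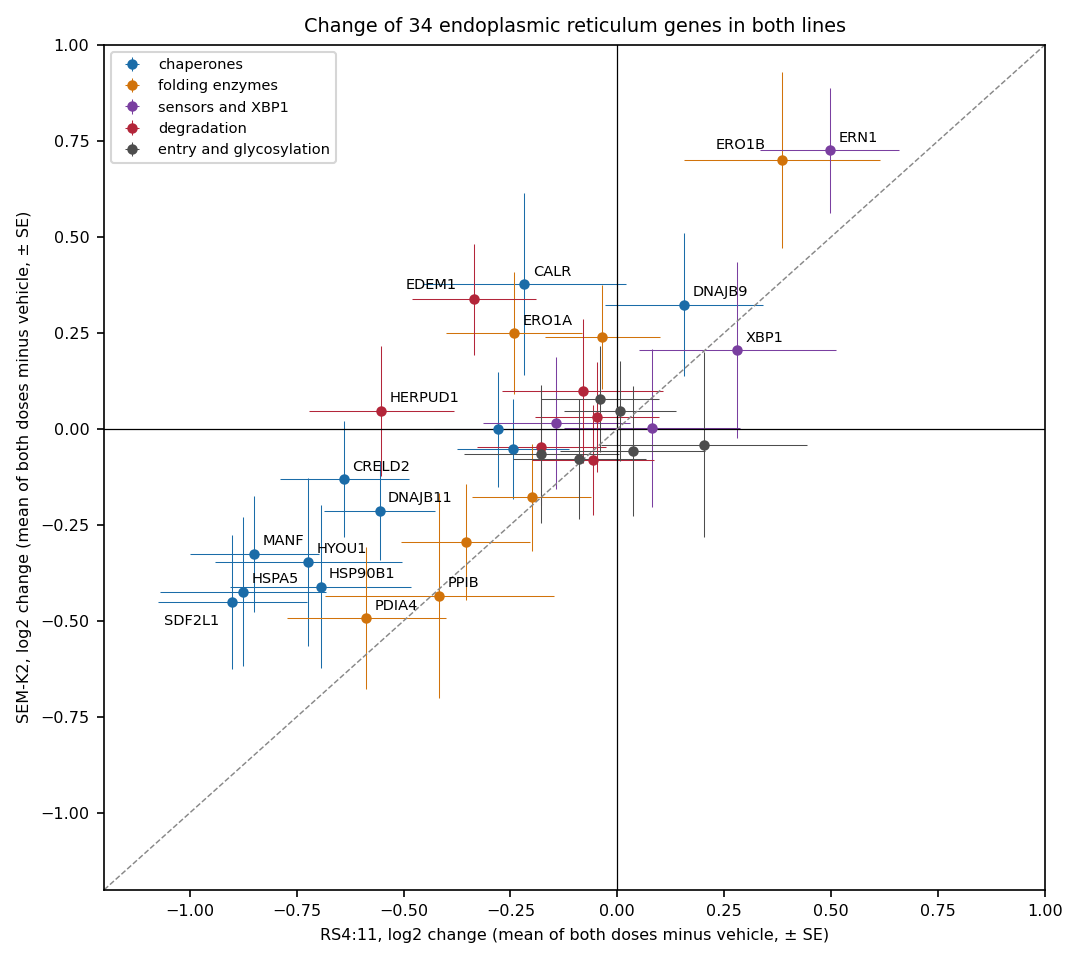
Change over both doses against vehicle in RS4:11 (x axis) and SEM-K2 (y axis), log2, for the 34 genes, with standard errors and a dashed line of equal change. Points are coloured by role. The 11 chaperones (blue) lie above the dashed line, and ERN1 and ERO1B lie at the upper right, with changes of 0.72 and 0.70 in SEM-K2; the ERN1 position on the x axis is not a measured change, since its RS4:11 vehicle arrays are under the floor, and SEC11C is under the floor in RS4:11 throughout.

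Between the doses, limma called 0 of 34 genes in RS4:11 and 0 in SEM-K2, as for all genes tested (percent called 0 in each). The median step from EC50 to 3xEC50 was -0.040 in RS4:11 and 0.017 in SEM-K2. In RS4:11 an unadjusted p under 0.05 was reached by 0 of 34 genes (0.805% of all genes), and the largest step was that of HYOU1, at -0.35 ± 0.25. In SEM-K2 PPIB alone reached it (2.22% of all genes), at -0.70 ± 0.31, and its lower value was on the array that stood apart, without which the step was -0.14.

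With vehicle the lines differed in 6 of the 34 genes, 3 higher and 3 lower in SEM-K2, or 17.6%, where 19.6% of all genes tested differed. SEC11C read 9.15 and 9.36 in SEM-K2 and 3.14 and 3.23 in RS4:11. The RS4:11 values were under the floor, so SEC11C was at least 38.2-fold higher in SEM-K2 (adjusted p = 3.02e-07). ERN1, at 5.38 and 5.16 against 3.41 and 3.87, was at least 2.41-fold higher (adjusted p = 0.000225). EDEM1 was lower in SEM-K2 by -1.55 ± 0.17 (adjusted p = 0.000143), 2.94-fold, and DNAJC3 by -0.94 ± 0.15 (adjusted p = 0.00192), 1.91-fold. With the mean of all probe sets of a gene the DNAJC3 difference was -0.84 and did not pass (adjusted p = 0.161). The DNAJC3 arrays read 7.78 and 7.89 in SEM-K2 and 8.81 and 8.74 in RS4:11.

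ATF6 was higher in SEM-K2 by 0.89 ± 0.24 (adjusted p = 0.0270) and XBP1 lower by -0.92 ± 0.27 (adjusted p = 0.0378). Both calls depend on single arrays. Without replicate 1 of RS4:11 vehicle the ATF6 difference was 1.02 (adjusted p = 0.0530) and the XBP1 difference -0.61 (adjusted p = 0.220), and without replicate 2 of SEM-K2 vehicle they were 0.82 (adjusted p = 0.125) and -0.62 (adjusted p = 0.225). A second XBP1 probe set above the floor differed by 1.43 in the opposite direction, and with the mean of both the XBP1 difference was 0.25 (adjusted p = 0.412). With the replicate block, EIF2AK3 (-0.44 ± 0.20, adjusted p = 0.0400) and DERL1 (-0.48 ± 0.16, adjusted p = 0.0370) passed as well, for 8 of 34, where 26.8% of all genes passed. Without the block their adjusted p were 0.166 and 0.0742, and the standard errors are from that fit.

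For the 5 chaperones with the largest changes after obatoclax, the vehicle difference was 0.21 ± 0.22 for HSPA5, 0.11 ± 0.25 for HSP90B1, 0.16 ± 0.20 for SDF2L1, 0.0038 ± 0.17 for MANF and 0.22 ± 0.25 for HYOU1, and none of them passed the test. The median vehicle difference of the 34 genes was 0.025, beside 0.011 for all genes tested.

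**Figure D4:**
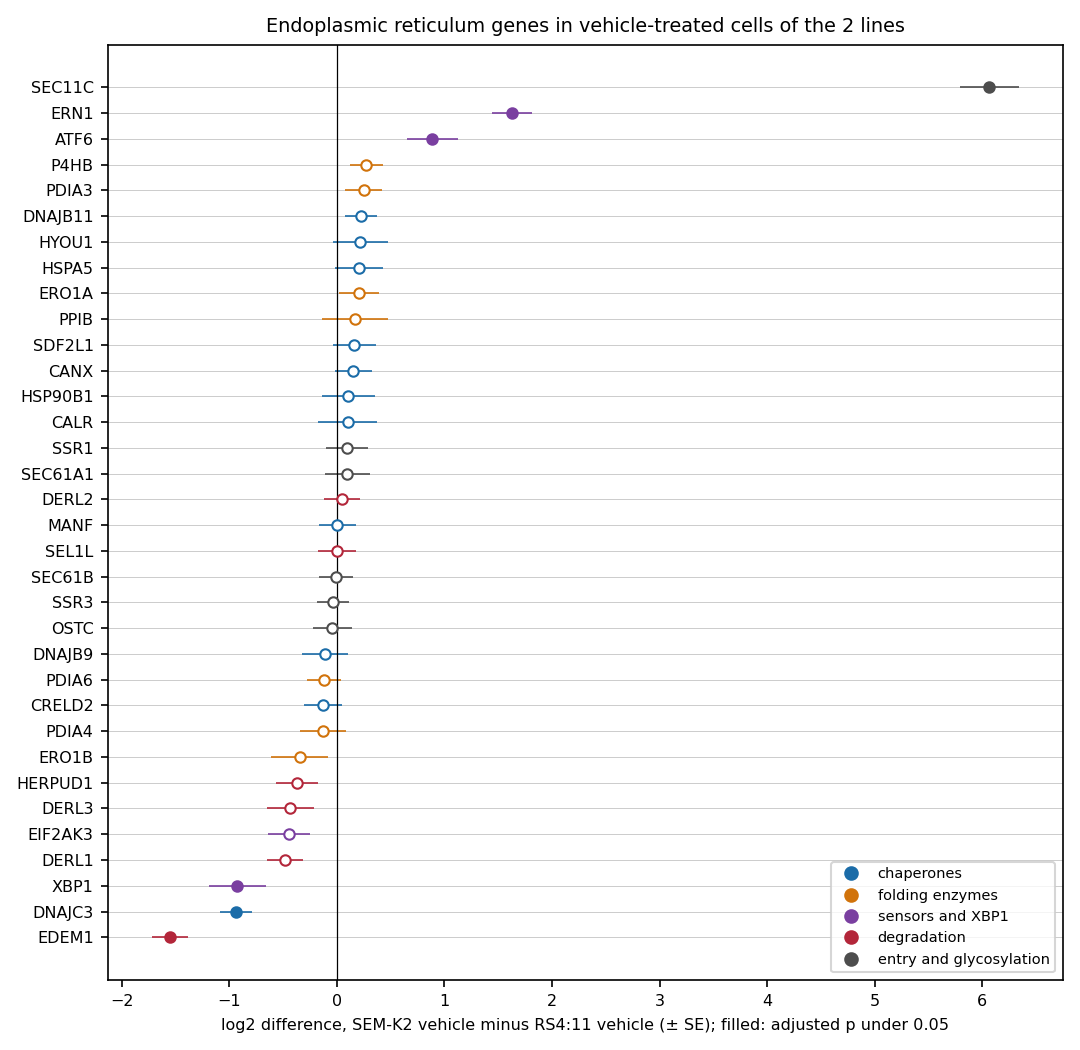
Log2 difference between the vehicle groups, SEM-K2 minus RS4:11, for the 34 genes in order of size, with standard errors and coloured by role. Filled points passed an adjusted p of 0.05. SEC11C, ERN1 and ATF6 are higher in SEM-K2 and EDEM1, DNAJC3 and XBP1 lower, and the other 28 genes lie between -0.48 and 0.27.

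Beyond the 36, 92 other genes of the pathway were counted in 7 lists, of which 88 had a probe set with 1 symbol and 80 were tested. In RS4:11 limma called 0 of the 80 at either dose or over both. In SEM-K2 it called 0 of the 80 at EC50 (0.170% of all genes tested), 1 at 3xEC50 (0.824%) and 1 over both doses (0.748%). The gene was PPP1R15A each time, which encodes the phosphatase subunit that reverses the PERK signal. PPP1R15A read 6.87 and 6.08 with vehicle, 7.39 and 7.52 at EC50, and 7.95 and 8.01 at 3xEC50. The treated arrays were all above vehicle, and at 3xEC50 PPP1R15A rose by 1.51 ± 0.25 (adjusted p = 0.0312). The other lists, on translocation, glycosylation, folding, degradation, exit and sensor cleavage, held 0 called genes in the dose comparisons of both lines, with and without the replicate block.

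ATF4, the transcription factor of the PERK arm, changed by -0.39 ± 0.21 over both doses in RS4:11 and by -0.11 ± 0.21 in SEM-K2. DDIT3, which encodes CHOP, read 8.07 and 7.98 with vehicle in RS4:11, 7.85 and 7.63 at EC50, and 8.14 and 7.52 at 3xEC50. In SEM-K2 it read 7.46 and 7.32, then 8.33 and 7.97, then 8.42 and 8.67, all treated arrays being above vehicle. There DDIT3 changed by 0.96 ± 0.19 over both doses (adjusted p = 0.0758; 0.0241 with the replicate block) and by 1.15 ± 0.22 at 3xEC50 (adjusted p = 0.0588; 0.0206 with the block). ASNS, the asparagine synthetase that ATF4 controls, changed by -0.26 ± 0.21 in RS4:11 and -0.22 ± 0.21 in SEM-K2.

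The 12 tested genes of the ATF4 and CHOP arm had a median change over both doses of -0.49 in RS4:11, with 10 of 12 below 0 (44.8% of all genes tested), and of -0.11 in SEM-K2. All genes tested had medians of 0.022 and 0.060. With the replicate block SLC7A11, the cystine transporter, passed in RS4:11, at -2.09 ± 0.45 (adjusted p = 0.0410; 0.277 without the block); it was named after its values were seen. With vehicle, 4 of the 80 genes differed between the lines, where 19.6% of all genes tested did: ASNS (2.26 ± 0.24 higher in SEM-K2, adjusted p = 0.000123), the BiP cofactors DNAJC1 (0.73 ± 0.18) and DNAJC10 (0.57 ± 0.15) and, lower in SEM-K2, the translocation factor TRAM1 (-0.62 ± 0.16). With the block 14 of the 80 differed (26.8% of all genes tested), 5 higher and 9 lower in SEM-K2, among them ATF4 (-0.55 ± 0.24, adjusted p = 0.0158) and DDIT3 (-0.63 ± 0.22, adjusted p = 0.0383). The standard errors beside these block p-values are from the fit without the block.

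Set beside the promoter motifs shown above, the 11 measured genes with ERSE or ERSE-II had a median change over both doses of -0.55 in RS4:11, with 9 below 0 (44.8% of all genes tested) and 7 (8.30%) with all treated arrays below vehicle. The 20 measured genes with an entry and neither motif had a median of -0.12, with 14 below 0 and 6 with all treated arrays below vehicle. These 20 include SEC11C, under the floor in RS4:11, and ERN1, whose vehicle arrays there were under it. Most genes with ERSE or ERSE-II are chaperones, the role with the lowest median over both doses in RS4:11 (-0.64). Motif and role therefore cannot be told apart here. In SEM-K2 the medians were -0.13 and -0.019. For ERSE alone the RS4:11 median was -0.25 over the 8 genes with it and -0.18 over the 23 without it. No test of a difference was made, and the ranges overlapped. Within the motif genes the changes in RS4:11 ran from -0.90 (SDF2L1) to 0.38 (ERO1B), and MANF, at -0.85, had neither motif in its window. A match is a description of the window and says nothing of what binds there.

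Of 44 other probe sets above the floor, for 22 of the genes, 35 had the same sign as the probe set used in RS4:11 over both doses and 36 in SEM-K2. For the difference between the lines over both doses 29 of the 44 had the same sign. The second HSPA5 probe set lay close to the one used, and the second HSP90B1 probe set was lower still, at -0.96 in RS4:11 and -0.67 in SEM-K2, against -0.69 and -0.41 for the one used. The probe sets used for HSP90B1 and CALR end in _x_at, whose probes can match other transcripts. The 3 other CANX probe sets above the floor changed by -0.33 to -0.60 in RS4:11, where the one used changed by -0.28. In SEM-K2 they changed by -0.14 to -0.35, where the one used changed by -0.0014. SDF2L1, MANF, CRELD2, HYOU1, DNAJB11, EDEM1 and OSTC each rest on 1 probe set. So do ERN1, HERPUD1, EIF2AK3, SEC61B and SEC11C, whose other probe sets were above the floor on 0 arrays.

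**Figure D5:**
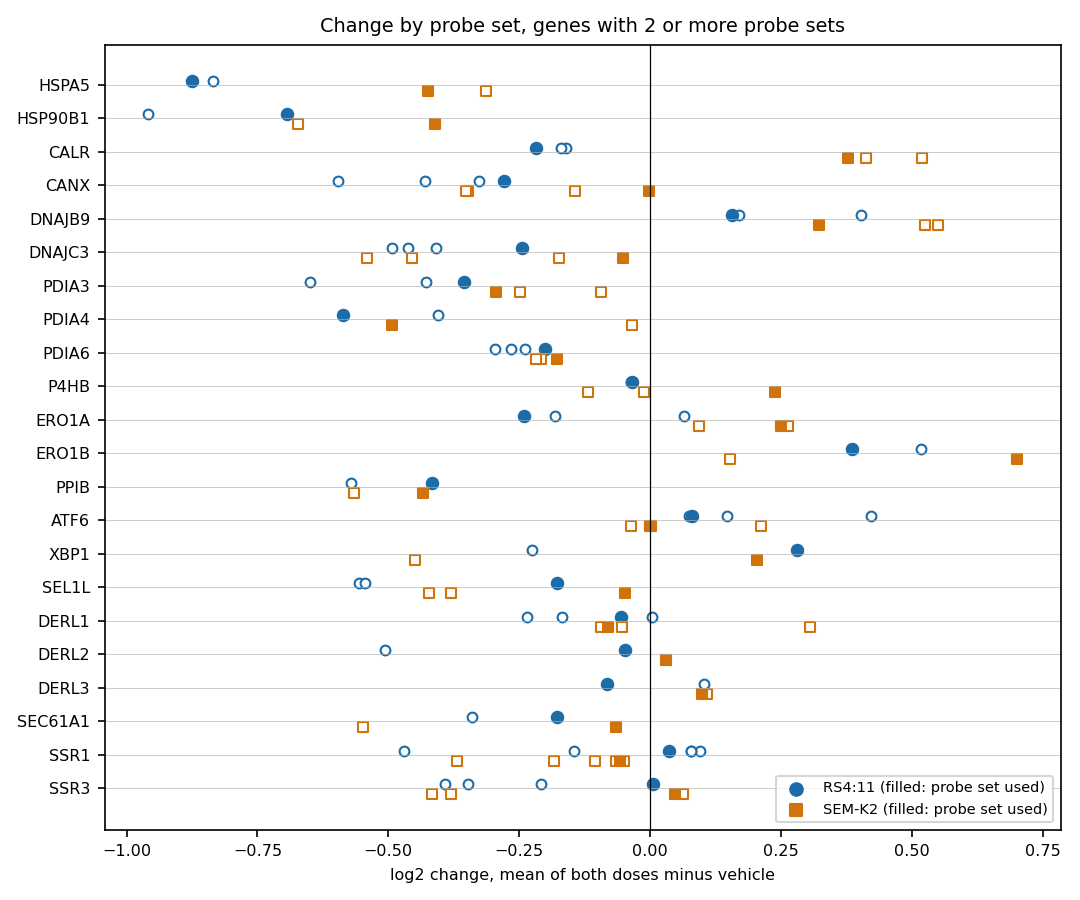
Log2 change over both doses against vehicle for every probe set above the floor, for the 22 genes with more than 1. Blue circles are RS4:11 and orange squares SEM-K2, filled for the probe set used and open for the others. The HSPA5, HSP90B1 and CANX probe sets all lie below 0 in RS4:11, and the 2 XBP1 probe sets lie on opposite sides of 0 in both lines.

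Taken by replicate number, with each treated array against the vehicle array of its own number, 21 of 34 genes in RS4:11 were lower in both replicates at EC50 (27.0% of all genes tested) and 25 at 3xEC50 (28.8%). In SEM-K2 these were 12 (20.2%) and 15 (23.5%). Higher in both replicates were 5 and 5 in RS4:11 (34.9% and 34.0% of all genes), and 8 and 9 in SEM-K2 (34.1% and 34.9%). HSPA5 was lower by -0.62 and -1.06 at EC50 and by -0.73 and -1.09 at 3xEC50 in replicates 1 and 2 of RS4:11, and by -0.21 and -0.44, then -0.32 and -0.73, in SEM-K2.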

How the data were processed

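RNA of 12 samples, 2 per line and dose, was hybridised to Affymetrix U133 Plus 2 arrays. The authors deposited GCRMA values (background corrected by probe sequence, quantile normalised, 1 value per probe set), per the submitters' processing notes, which give no version and no scale. The values the authors deposited were read as log2 values because they ran from 0.64 to 16.2 with array medians of 3.13 to 3.16. Arrays have no read depth, and precision is set by their number. Probe sets were named from the platform annotation where it gave 1 symbol, and each gene was represented by its probe set of highest mean. Genes over 4 (log2) on at least 2 arrays were tested, and a group mean under 4 was read as not above the floor.

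Tests came from limma 3.58.1 (lmFit, then eBayes; R 4.3.3), in 1 model of 6 group means with 6 residual degrees of freedom, Benjamini-Hochberg adjustment over all genes within a comparison, and an adjusted p under 0.05 as the threshold; the test was tried on simulated data. Over both doses means the average of both dose changes. The labels number the replicates 1 and 2 in each group, and deviations of same-numbered arrays from their group means correlated at 0.19 to 0.60 over all 15 pairs of groups, so the number was taken to pair the arrays and its block is given where it changes a call. Alternatives were this block over both lines or within each, other probe set rules, other filters, trend and robust settings, centring, array weights, fits of 1 line and leaving out each array. With 2 arrays a group the weights are equal within each group. They therefore cannot weigh the array that stood apart in RNA quality below its replicate. Promoter windows came from RefSeq, GRCh38.p14, and were searched with Python 3.11.15. All 36 genes are accounted for. Other genes of the pathway were named where called, up to 4 per list by size, with ATF4, DDIT3 and ASNS always. The genes and lists were chosen with earlier results of these data known.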

Additional observations from a re-analysis of the deposited data

Results flagged for a closer look

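EDEM1 was flagged because its response differed in sign between the lines on every array: all treated arrays of RS4:11 lay below both vehicle arrays and all those of SEM-K2 above. The SEM-K2 response minus the RS4:11 response was 0.48 at EC50, 0.86 at 3xEC50 and 0.67 over both doses (log2). At 3xEC50 the same held for CALR, with a difference of 0.90 (0.65 without replicate 2 of SEM-K2 at 3xEC50), for ERO1A, with 0.67, and for DERL3, with 0.37. At EC50 it held for SSR3, with 0.26. EDEM1 rests on 1 probe set. The other 2 CALR probe sets had differences of 1.19 and 1.31 at 3xEC50, but the other 2 of ERO1A had only 0.059 and 0.073, and the other DERL3 probe set above the floor -0.054, so the pattern of these 2 genes rests on 1 probe set each. The difference itself was tested by limma in each case, and none of these passed an adjusted p of 0.05. The unadjusted p was 0.00513 for EDEM1, 0.0437 for CALR and 0.0295 for ERO1A at 3xEC50. These genes were picked for this pattern in the same data, so their unadjusted p-values are no support for it. How many of all genes tested show the pattern is not given here.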

How the results depend on the processing

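The replicate block over both lines, and the block within each line, each called 2 of the 34 genes in SEM-K2 at 3xEC50 in place of 0. Of all 10561 genes tested they called 220 and 299 there. Over both doses in SEM-K2 the block within each line called 1 of the 34 (ERO1B, adjusted p = 0.0409) and 297 of all genes tested. Beside the calls given with their results, the block over both lines changed no other call of the 34 genes. The block within each line gives the vehicle difference as modelled for replicate 1, not the difference of the group means. On that measure ATF6 did not pass (0.79, adjusted p = 0.0553) and HERPUD1 did (-0.58, adjusted p = 0.0206). Neither value bears on the calls from the group means. With the mean of all probe sets of a gene the median change of the genes was -0.26 at EC50, -0.28 at 3xEC50 and -0.26 over both doses in RS4:11, and -0.060, -0.19 and -0.13 in SEM-K2; the SEM-K2 step between doses was -0.11 and the difference between the lines at 3xEC50 0.065. The same rule reversed XBP1 with vehicle, to 0.25, where a second probe set of opposite sign entered the mean, and ended the vehicle call of DNAJC3 (-0.84, adjusted p = 0.161). Without _x_at and _s_at probe sets the median was -0.068 in SEM-K2 at EC50 and 0.23 for the difference between the lines over both doses. With arrays centred on the median it was -0.079, -0.10 and -0.12 in SEM-K2 at EC50, at 3xEC50 and over both doses, and 0.15 and 0.13 for the difference between the lines at 3xEC50 and over both doses. With no filter on low values ATF6 (adjusted p = 0.0792) and XBP1 (0.112) were not called with vehicle. The cause of these shifts was not tested.

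Leaving out 1 array at a time, the median change ranged in RS4:11 from -0.30 to -0.15 at EC50, -0.26 to -0.15 at 3xEC50, -0.27 to -0.16 over both doses and -0.071 to 0.043 between doses. In SEM-K2 it ranged from -0.074 to 0.024 at EC50, -0.12 to 0.0066 at 3xEC50, -0.055 to -2e-04 over both doses and -0.056 to 0.041 between doses. The median difference between the lines ranged from 0.13 to 0.31 at EC50, 0.17 to 0.30 at 3xEC50 and 0.13 to 0.23 over both doses, and with vehicle from -0.085 to 0.098. Counts of genes called are left out here, since each of these fits leaves 1 sample in a group. Where an array left 1 sample in a group, that sample was assumed to vary like the other groups. Leaving out RS4:11 vehicle replicate 1 or 2 moved the RS4:11 change over both doses of MANF to -1.07 or -0.63 and of SDF2L1 to -1.18 or -0.62.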
